A study of Mus musculus with 24 samples.

Results

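The miRNAs mmu-miR-140 and mmu-miR-149 (miR-140 and miR-149 below) were followed across 24 samples of a mouse model of metastatic breast cancer. They were chosen as raised in the primary tumor (PT) over normal mammary gland (NMG), where the study lists miR-140 for both tumor areas and miR-149 for the EMT-like areas only, so that comparison is given here as a description with no test. They are 2 of the 566 mouse miRNA probes of the panel, each is read by 1 probe, and the panel held 1 probe for each of their hairpins. The panel was counted by nCounter, an assay in which barcoded probes bind the RNA and are counted without amplification.

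The tumors grew from JygMC(A)-GFP/Luc cells, a line from a spontaneous mammary carcinoma of a wild mouse, marked with a fluorescent and a luminescent reporter and injected into the mammary fat pad of female BalbC nude mice, which lack mature T cells. Every tumor therefore derives from 1 cell line. Carcinoma areas with epithelial morphology (n = 5), EMT-like areas with spindle-shaped cells (EMT, epithelial to mesenchymal transition; n = 7) and lung metastases (n = 4) were cut out by laser capture microdissection. NMG (n = 2) and normal lung (n = 2) came from mice of the same strain. The untreated line was grown as a monolayer (n = 2) or as repeatedly passaged 3D spheres on plates to which cells do not adhere (n = 2). Several tumor samples share an animal, and 1 sample each of carcinoma, EMT-like area and metastasis carries a label naming 3 animals. The carcinoma and EMT-like areas together are called PT (n = 12).

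A mature miRNA is cut from 1 arm of a hairpin transcript and guides the silencing complex to messenger RNAs that pair with its seed, the bases near its 5′ end. The miR-140 hairpin lies inside Wwp2, a ubiquitin ligase gene that is active in cartilage, and miR-140 is best known from chondrocytes, where the transcription factor Sox9 drives it. The miR-149 hairpin lies inside Gpc1, which encodes a heparan sulfate proteoglycan of the cell surface.

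The hairpins are shown because they place both miRNAs in host genes on different chromosomes and show that their sequences differ. RefSeq on GRCm38.p6 places Mir140 at chr8:107551244-107551313 on the plus strand, within the bounds of Wwp2, and Mir149 at chr1:92850378-92850443 on the plus strand, within the bounds of Gpc1. Exons of the hosts were not used here. In the hairpins below, capitals mark the miR-140-3p arm, which no probe of the panel names, and the miR-149-5p arm. In miRNA naming, the older names miR-140 and miR-149 stand for mmu-miR-140-5p and mmu-miR-149-5p, and the probes are read that way here from their names, since no probe sequences were used. In the mature miR-149-5p line, capitals mark the seed, bases 2 to 8.
Mir140 hairpin: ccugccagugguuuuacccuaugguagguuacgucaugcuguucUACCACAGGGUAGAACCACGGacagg
Mir149 hairpin: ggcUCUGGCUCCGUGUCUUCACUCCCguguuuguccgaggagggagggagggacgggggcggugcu
mmu-miR-149-5p: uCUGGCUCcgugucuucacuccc
The Mir140 hairpin has 70 bases with a GC content of 52.9%, and the Mir149 hairpin has 66 bases with a GC content of 68.2%. Of 1679 mature mouse names in the table, 0 others carry the seed of miR-149-5p, whereas 3 others carry that of miR-149-3p.

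The deposited values are counts from which each lane's average over 6 negative controls has been taken off, and they are not scaled between lanes. The sum over mouse miRNAs ran from 24418 to 44953 in the cultures, from 61497 to 114004 in metastases, from 110552 to 183539 in PT, and from 525225 to 2334955 in the 4 normal tissues. Normalized values below were therefore scaled by the trimmed mean of M values (TMM), with lane factors between 0.403 and 5.63, and the highest factor belonged to normal lung replicate 2. A value counts as detected where it exceeds that average by 2 SD of the same controls, which puts the limit between 4 and 21.4 deposited counts. Normal tissues and tumors differed in their cell markers. Endothelial miR-126-3p had mean normalized values of 62080 in normal lung, 13019 in NMG and 1788 in PT, and it was 0 in all 4 cultures. The summed list of 7 epithelial miRNAs lay between 930.4 and 5385 in carcinoma but between 59.4 and 1758 in EMT-like areas. In the cultures it lay between 54.5 and 112. Under the limit were 5 of 7 of these miRNAs in both monolayers and 7 of 7 in both spheres. Most of the panel was also under the limit there. Of 566 mouse miRNAs, 104 and 126 were detected in the monolayers and 108 and 119 in the spheres.

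In PT, miR-140 was abundant in every sample and miR-149 was far lower. The normalized value of miR-140 was 1327, 997, 1775, 1429 and 4408 in carcinoma replicates 1 to 5, a mean of 1987 ± 1381 (SD, n = 5). In the EMT-like areas it was 1695, 1668, 1564, 2917, 1120, 1533 and 1237 in replicates 1 to 7, a mean of 1676 ± 588 (SD, n = 7). The values of both areas overlapped, and carcinoma replicate 5 was the highest of the 24 samples. NMG had 105 and 114, a mean of 109 ± 6.31 (SD, n = 2), so that 12 of 12 PT samples lay above both NMG samples. The ratio of means was 16.5, and the log2 fold change of the fit was 3.91 with a standard error (SE) of 0.86. Unless stated otherwise, each SE uses the spread pooled over all 7 groups, cultures included.

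The normalized value of miR-149 was 37.7, 40.2, 60.3, 110 and 127 in carcinoma, a mean of 75.0 ± 41.0 (SD, n = 5). It was 63.1, 107, 120, 82.7, 107, 144 and 151 in the EMT-like areas, a mean of 111 ± 31.3 (SD, n = 7). Carcinoma replicates 1 to 3 were lower than every EMT-like area, and the other two lay within their range. NMG had 25.1 and 14.1, a mean of 19.6 ± 7.80 (SD, n = 2), below 12 of 12 PT samples. The ratio of means was 4.88 and the log2 fold change 2.16 (SE 0.57). Without overlap, 6% of the 583 probes tested lay higher in PT than in NMG, and 5.15% were called higher at an adjusted p under 0.05 (limma, Benjamini-Hochberg). Since this contrast chose both miRNAs, nothing is read from these shares.

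Without scaling, the rise over NMG was smaller for both miRNAs, and miR-149 but not miR-140 then overlapped with NMG. In deposited values, miR-140 was 254 and 306 in NMG and between 844 and 3234 in PT, still without overlap. Deposited miR-149 was 61 and 38 in NMG, and carcinoma replicates 1 and 2, both at 34, lay below both of them, which left 10 of 12 PT samples above. The log2 fold change without scaling was 2.57 for miR-140 and 0.86 for miR-149. By area and after normalization, it was 3.96 (SE 0.94) in carcinoma and 3.87 (SE 0.90) in EMT-like areas for miR-140, and 1.76 (SE 0.62) and 2.44 (SE 0.60) for miR-149, with NMG shared by all 4 comparisons. In samples that may hold several cell types, a change in their shares and a change in RNA per cell cannot be told apart.

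**Figure D1:**
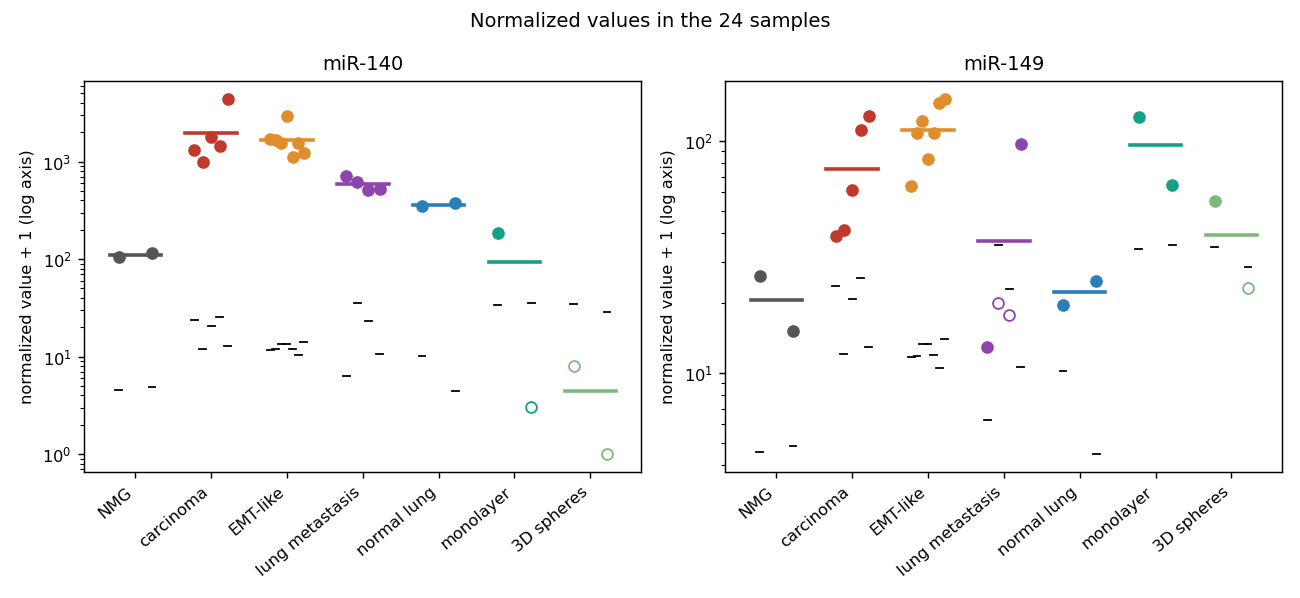
Normalized value + 1 of miR-140 (left) and miR-149 (right) on a log axis in the 24 samples by group; points are samples, open points lie under the detection limit of their lane, short black dashes mark that limit and wide lines the group mean. For miR-140 the 12 PT samples sit between 997 and 4408, above the metastases at 515 to 703, while miR-149 reaches at most 151 and overlaps between most groups.

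**Figure D2:**
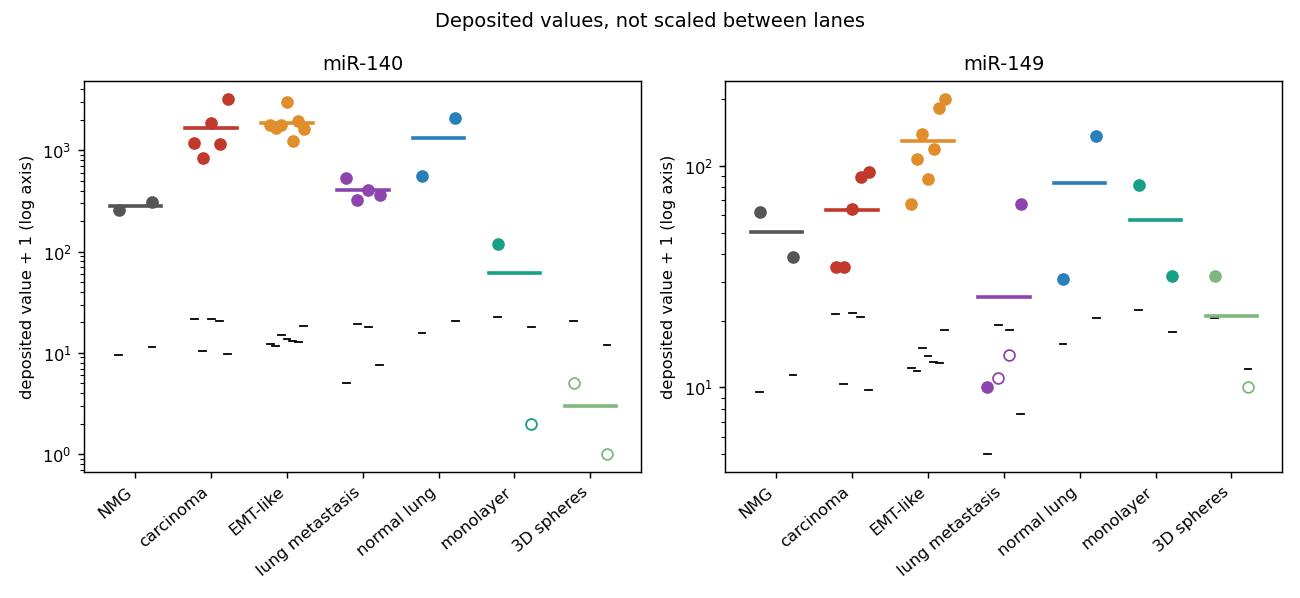
Deposited value + 1, not scaled between lanes, drawn as in the plot of normalized values. Normal lung replicate 2, with 2103 for miR-140 and 135 for miR-149, rises into the range of the primary tumors on this scale.

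Several marker lists were lower in PT. Against NMG, 2 of 3 miRNAs of the mesenchyme list, 2 of 2 endothelial, 2 of 2 smooth muscle, 3 of 3 erythroid, 3 of 3 adipose-linked and 3 of 4 leukocyte miRNAs were lower at an adjusted p under 0.05 (limma), with 0 higher in these lists, where 23.5% of all probes were lower. In the epithelial list 2 of 7 were lower, and in the skeletal muscle list 1 of 4. Both shares are near that of all probes. The mesenchyme, endothelial and adipose-linked lists had at least as many lower under each other scaling. On the scale of the 100 most abundant miRNAs, 1 of 2 smooth muscle, 2 of 3 erythroid, 2 of 4 leukocyte and 1 of 7 epithelial miRNAs were lower, with 1 leukocyte and 1 skeletal muscle miRNA higher, and on that of the miRNA total 1 leukocyte miRNA was higher and 1 of 7 epithelial lower. Without scaling, 6 of 7 epithelial miRNAs were lower, and with the mRNA controls 3 of 7. The median of all probes also moved down in these settings, and the 23.5% above holds for TMM only. The median log2 fold change was −2.63 over the mesenchyme list and −0.45 over all probes. Mesenchymal miR-199a-3p, for example, had a mean of 1006 ± 373 (SD, n = 12) in PT and 5992 ± 952 (SD, n = 2) in NMG. miR-455, the other cartilage-linked miRNA measured, passed the test in 0 of the 5 comparisons made, and its normalized values in PT ran from 1.11 to 30.6. The other 7 miRNAs that the study lists as raised in both areas of PT, a list chosen on these samples and so no independent evidence, held 6 that were higher, miR-1892 being the exception with a mean of 0.756.

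Whether miR-140 and miR-149 separate the carcinoma from the EMT-like areas was tested. The choice of miR-140, listed for both areas, did not use that difference. miR-149 was listed for the EMT-like areas only, which favours lower values in carcinoma. Its p-values for this difference are therefore not independent of its choice. Neither passed the test. miR-140 differed by a log2 fold change of 0.09 (SE 0.66, 95% interval −1.28 to 1.47, adjusted p = 1 by limma with Benjamini-Hochberg adjustment over 583 probes), and the exact two-sided permutation test over 792 splits gave p = 0.802. With the animal as a block, the difference was 0.10. miR-149 was lower in carcinoma by 0.68 on the log2 scale, a fold change of −0.68 (SE 0.44, 95% interval −1.58 to 0.23, limma adjusted p = 0.502). An exact two-sided permutation test gave it p = 0.0896, which became 0.179 when adjusted for the 2 miRNAs tested. Of the 583 probes, 0.172% were called between these areas in either direction, that is 1 probe.

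Some tumors gave both areas, and these allow a comparison within the animal. In 3 of 4 animals (1 of these being the sample that names 3 animals), carcinoma was lower than the EMT-like area for miR-140, and the same was seen for miR-149. The differences ran from −0.74 to 0.60 for miR-140 and from −1.39 to 0.61 for miR-149 on the log2 scale. The exception was the same animal for both, with carcinoma replicate 5 and EMT-like replicate 4. That animal held the highest miR-140 of each area, 4408 in carcinoma and 2917 in the EMT-like area, and its metastasis had 614.

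The labels hold 2 series of animals, named by letters or by numbers. Whether the series differ was not tested, and the difference between areas is given for each. For miR-149 it was −0.85 among lettered animals (3 against 2 samples, exact two-sided permutation p = 0.2, smallest possible 0.1). It was −0.0029 in the numbered series (2 against 5, exact two-sided permutation p = 1, smallest possible 0.0476). For miR-140 it was −0.34 in the lettered series (exact permutation p = 0.4) and 0.67 in the numbered one (exact permutation p = 0.286). The epithelial list had a median log2 fold change of 2.79 between the areas, against −0.16 over all probes. Of its members, 0 of 7 were called by limma but 6 of 7 had an unadjusted p under 0.05. The mesenchyme, endothelial and leukocyte lists also had 0 called, with 1, 0 and 1 at an unadjusted p under 0.05.

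Lung metastases had less miR-140 than any primary tumor sample, except that 3 of 4 did when scaled by the 4 mRNA controls. Normalized values were 703, 614, 515 and 524, a mean of 589 ± 88.3 (SD, n = 4), and 4 of 4 lay below all 12 PT samples. The ratio of means to PT was 0.326, with a log2 fold change of −1.50 (SE 0.65). The metastases were also close to each other, with a coefficient of variation of 15.0% against 69.5% in carcinoma and 35.1% in the EMT-like areas. In carcinoma, replicate 5 at 4408 lay far from the other replicates, which ran from 997 to 1775.

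miR-149 was 11.9, 19.1, 16.7 and 96.1 in the metastases, and replicates 2 and 3 lay under the detection limit. Replicates 1 to 3 were below all PT samples, while replicate 4 lay within the PT range. The mean was 35.9 ± 40.2 (SD, n = 4), and the log2 fold change against PT was −1.78 (SE 0.43). Without metastasis replicate 4 it was −2.42. Both differences are descriptions, because the PT samples entered the choice of the miRNAs. Lower without overlap in metastases than in PT were 1.54% of the 583 probes, and 2.57% were called lower.

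Within animals the direction was the same in every pair. Against the EMT-like area of the same animal, the metastasis was lower in 4 of 4 animals for both miRNAs, with log2 differences from −2.25 to −1.24 for miR-140 and from −3.04 to −0.64 for miR-149. Against carcinoma it was lower in 2 of 2 animals, with mean log2 differences of −1.88 for miR-140 and −2.13 for miR-149. Of the mesenchyme list, 2 of 3 (miR-199a-3p and miR-199a-5p) were lower in metastases than in PT at an adjusted p under 0.05 (limma), where 2.57% of all probes were lower, and 0 of 3 with the 4 mRNA controls as the scale (2 at an unadjusted p under 0.05). The summed list ran from 230 to 995 in metastases and from 882 to 2844 in PT, and none of its members was under the limit throughout either group. Called higher in the metastases were leukocyte miR-150 (1 of 4 of its list, log2 fold change 2.65, limma adjusted p = 5e-05), erythroid miR-451 (1 of 3, 1.48, limma adjusted p = 0.00215) and epithelial miR-203 (1 of 7, 2.62, limma adjusted p = 0.0167). Of these, miR-451 and miR-203 were not called without scaling or with the mRNA controls. No other of the 583 probes was called higher. Leukocyte miR-223 (log2 fold change −0.65) and epithelial miR-205 (−0.51) went the other way, uncalled. The epithelial list had a median of 2.26, and its sum lay between 2509 and 4671 in metastases and between 59.4 and 5385 in PT. The part of the cell types of these lists in the lower values of the 2 miRNAs was not tested. Of the other 7 miRNAs raised in PT, 0 were called between metastasis and PT by limma and 3 had an unadjusted p under 0.05. Of these 7, miR-9 had a mean of 656 ± 150 (SD, n = 4) in metastases and 841 ± 315 (SD, n = 12) in PT, with an unadjusted p of 0.422.

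**Figure D3:**
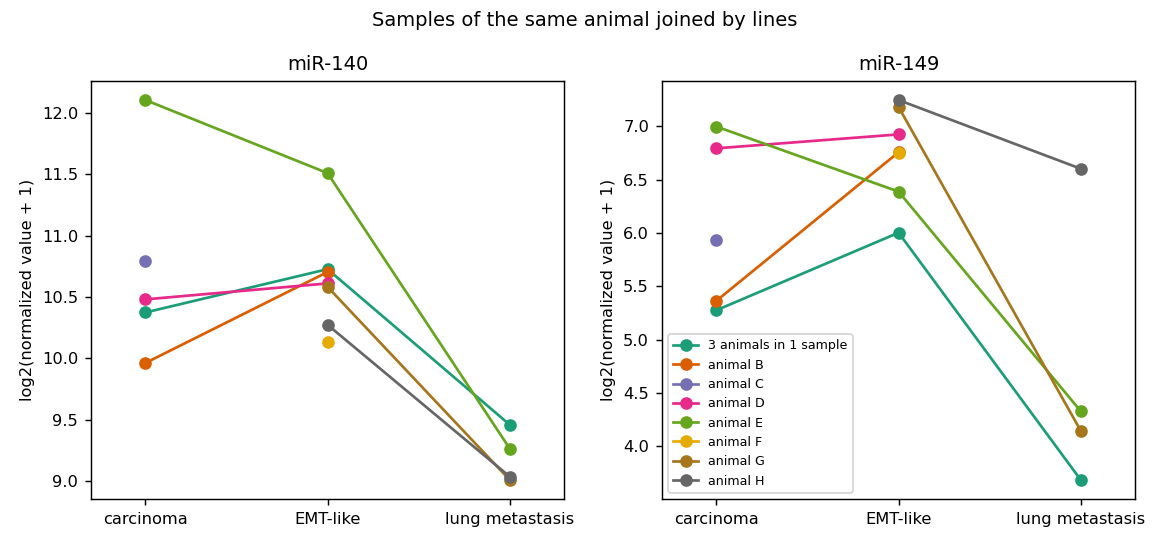
log2(normalized value + 1) of miR-140 (left) and miR-149 (right) in tumor samples, with lines joining samples of 1 animal; the sample naming 3 animals is drawn as 1. Every line falls from the EMT-like area to the metastasis, and between carcinoma and EMT-like area 3 of 4 lines rise.

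The metastases were also set against normal lung, the tissue in which they grew, a contrast that shares no sample with PT and NMG, although the metastases share animals with PT. Neither miRNA passed the test. Normalized miR-140 was 346 and 373 in normal lung, a mean of 360 ± 19.1 (SD, n = 2), and 4 of 4 metastases lay above both, as did 10.6% of probes without overlap. The log2 fold change was 0.70 (SE 0.98, 95% interval −1.33 to 2.73, limma adjusted p = 0.616), and the exact two-sided permutation p was 0.0667, the smallest that 4 against 2 samples can give. Fitted on these 2 groups alone, the same difference had a limma adjusted p of 0.0322. In the fit of all groups the spread includes the cultures. The direction depended on scaling. Deposited miR-140 was 559 and 2103 in normal lung and 534, 322, 401 and 360 in the metastases. Without scaling, the log2 fold change was −1.45, and scaled by the 4 mRNA controls it was −1.80.

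miR-149 was 18.6 and 24 in normal lung, a mean of 21.3 ± 3.80 (SD, n = 2). Metastasis replicate 4 was above both and replicates 1 and 3 below both. The log2 fold change was 0.22 (SE 0.65, 95% interval −1.12 to 1.57, limma adjusted p = 0.821, exact permutation p = 0.933), and it turned to −0.41 without metastasis replicate 4. Scaling decided this comparison, with −1.86 for no scaling (limma adjusted p = 0.0286) and 1.84 for the 100 most abundant miRNAs (limma adjusted p = 0.0297). Of the 583 probes, 49.2% were called between metastasis and normal lung, 7.03% higher and 42.2% lower. Those are 41 higher and 246 lower probes, against 8 and 377 without scaling, 95 and 128 on the scale of the 100 most abundant, 92 and 145 on that of the total, and 3 and 386 with the mRNA controls. Among the other 7 miRNAs raised in PT, 5 were higher in metastases than in lung, but 2 without scaling and 1 with the mRNA controls. miR-9 was one of them, with 656 ± 150 (SD, n = 4) against 13.4 ± 12.9 (SD, n = 2), a log2 fold change of 5.84 (SE 0.55, limma adjusted p = 1.38e-08). Endothelial miR-126-3p fell by 5.05 on the log2 scale (limma adjusted p = 6.27e-10).

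Normal lung and NMG of the same mouse could be set side by side in 2 animals. miR-140 was higher in lung in both, by 1.72 and 1.71 on the log2 scale, and in deposited values as well. For miR-149 lung minus NMG was −0.42 in one animal and 0.72 in the other. Both are values of 2 animals with no test.

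**Figure D4:**
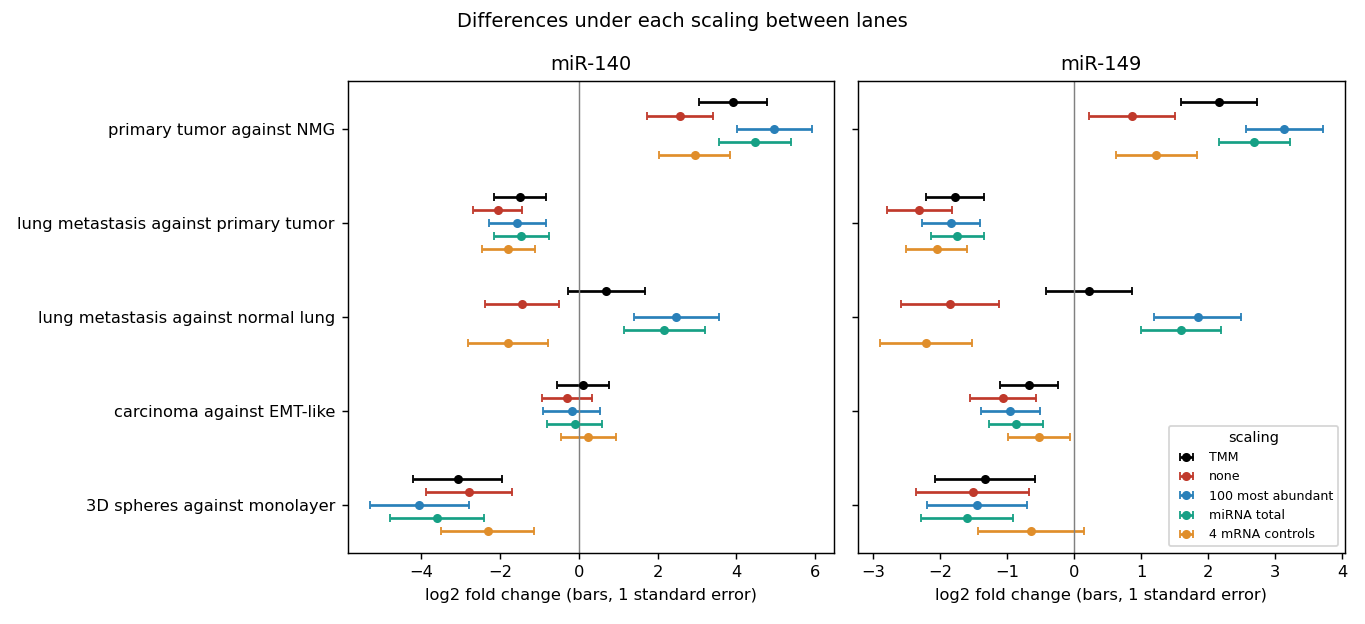
log2 fold change of miR-140 (left) and miR-149 (right) in 5 comparisons under 5 scalings between lanes, with bars of 1 SE. The differences of PT against NMG stay above 0 and those of metastasis against PT below 0, whereas metastasis against normal lung lies from −1.80 to 2.48 for miR-140 and from −2.22 to 1.84 for miR-149.

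In culture, the line that formed the tumors had little or no miR-140. Deposited values were 119 and 1 in the monolayers and 4 and 0 in the spheres, and monolayer replicate 1 alone was above the detection limit. The normalized values were 185 and 2.04 in the monolayers and 6.97 and 0 in the spheres. Against the limit of the sphere lanes, normalized miR-140 was at least 54.3-fold higher in carcinoma, at least 50.9-fold in EMT-like areas, at least 18.5-fold in metastases, at least 11.4-fold in normal lung and at least 3.49-fold in NMG. These bounds set the mean log2 value of each group against that of the limits.

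miR-149 was detected in culture. Its deposited values were 81 and 31 in the monolayers and 31 and 9 in the spheres, of which the last was under the limit. The normalized values were 126 and 63.2 in the monolayers, a mean of 94.5 ± 44.3 (SD, n = 2), which lies in the range of PT. The spheres had 54.0 and 22.3, a mean of 38.2 ± 22.4 (SD, n = 2), below both monolayers.

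Neither difference between the cultures passed the test. For miR-140 the log2 fold change of spheres over monolayer was −3.07 (SE 1.13, 95% interval −5.41 to −0.73, limma adjusted p = 0.152, unadjusted 0.0125), and no fold bound above 1 could be given. It rested on monolayer replicate 1, and was −0.11 without it (limma adjusted p = 1) and −6.04 without monolayer replicate 2 (limma adjusted p = 2.26e-05). For miR-149 it was −1.33 (SE 0.75, 95% interval −2.88 to 0.22, limma adjusted p = 0.494). The exact two-sided permutation p was 0.667 for miR-140 and 0.333 for miR-149, the smallest that 2 against 2 samples can give. Of the 583 probes, 4.63% were called between the cultures, and 14.6% were lower in spheres without overlap. Monolayer replicate 1 also stood apart in other probes, such as the shared probe of miR-20a and miR-20b with deposited values of 574 in it and 25 in replicate 2.

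The mesenchyme and endothelial lists were under the limit in the cultures, as was most of the panel. miR-199a-3p and miR-126-3p were 0 in all 4 lanes after normalization, and 3 of 3 mesenchyme and 2 of 2 endothelial miRNAs were under the limit. Mesenchyme miR-214 was under it with means of 12.5 in the monolayers and 23.0 in the spheres, against 27.2 in PT. Of the 2 smooth muscle miRNAs, 1 was under the limit in both spheres. miR-145 of the smooth muscle list had 838 ± 614 (SD, n = 2) in the monolayers and 459 ± 48.2 (SD, n = 2) in the spheres, and the leukocyte list summed to between 99.1 and 139, with 2 of 4 under the limit in both monolayers and 3 of 4 in both spheres. The summed mesenchyme list was at most 26.1 in the cultures and at least 882 in PT. Other miRNAs raised in PT were present in culture, such as miR-9 with 715 ± 509 (SD, n = 2) in the monolayers and 635 ± 75.8 (SD, n = 2) in the spheres, and miR-34c, a transcriptional target of p53, with 1571 ± 165 and 2141 ± 562. miR-2137 was 318 ± 23.5 (SD, n = 2) in the spheres and 5.10 ± 7.21 in the monolayers, where it was under the limit, and was called higher in spheres (limma adjusted p = 5.4e-05). The part of host cells in the miR-140 of the tumors was not tested.

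By mean normalized level, the order for miR-140 was carcinoma (1987), EMT-like (1676), metastasis (589), normal lung (360), NMG (109), monolayer (93.4) and spheres (3.48). Carcinoma and EMT-like areas overlapped, as did NMG with monolayer and monolayer with spheres. The steps from EMT-like areas to metastasis, from metastasis to normal lung and from normal lung to NMG had no overlap. Of all probes, 10.6% were likewise higher in metastasis than in normal lung without overlap. For the first and last of these steps that share was not computed, and the last sets 2 samples against 2. The order of metastasis and normal lung held for TMM, the 100 most abundant miRNAs and the total, while without scaling and with the mRNA controls 4 of 4 metastases lay below both normal lung samples. For miR-149 the order was EMT-like (111), monolayer (94.5), carcinoma (75.0), spheres (38.2), metastasis (35.9), normal lung (21.3) and NMG (19.6), and every neighbouring pair overlapped.

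The miRNAs whose pattern was most like each of the 2 were sought among 195 mouse miRNA probes detected in at least 12 of the 24 samples, as Pearson's r of log2 values, a description over samples that share lane scaling. For miR-140 they were miR-106b (r = 0.85), miR-19b (r = 0.85) and the miR-20a and miR-20b probe (r = 0.85), which come from the oncogenic miR-17-92 cluster and its paralogs. This likeness rested on the 4 cultures, where the mean of each was below its PT mean, and over the 20 tissue samples r was −0.32, −0.27 and 0.09. The rank correlations over all samples were 0.24, 0.17 and 0.41.

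For miR-149 the most alike were miR-221 (r = 0.73), miR-125a-5p (r = 0.73) and let-7e (r = 0.70), a member of the let-7 family. They stayed alike over the 20 tissue samples, with r of 0.84, 0.75 and 0.75. miR-221 had 219 ± 95 (SD, n = 12) in PT, 107 ± 88.2 (SD, n = 4) in metastases and 49.3 ± 7.41 (SD, n = 2) in NMG, the order of miR-149 in these groups. The cultures did not follow it, with miR-221 means of 230 in the monolayers and 266 in the spheres. The 2 miRNAs themselves had r = 0.34 over the 24 samples and 0.71 over the 20 tissues, where both had been chosen as raised in PT.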

How the data were processed

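Total RNA of 24 samples was counted with the nCounter mouse miRNA panel (618 rows, 566 of them mouse miRNAs). Per the values, the deposited table holds counts minus the mean of 6 negative controls of each lane, so 35.2% of miRNA values lie below 0. A scaling between lanes by the authors is not given in the sources used here, and none is visible in the values. The members and all lists were chosen with earlier results of these data known. Groups came from the sample titles. In this work, values were floored at 0 and scaled by TMM (trims of 30% and 5%) on the 583 probes that exceeded 0 in any sample. They were then taken as log2(value + 1). The added 1 shrinks fold changes of low probes, but values under the detection limit can still give large ones. Viral probe mghv-miR-M1-2, for example, had means of 0 in spheres and 12.1 in monolayers and a log2 fold change of −3.69. All 7 groups were fitted with limma 3.58.1 (trend) in R 4.3.3, with Benjamini-Hochberg adjustment over 583 probes. Count models were not used, because the values are not raw counts. Single miRNAs were also compared by exact two-sided permutation over samples. The procedure was tested on simulated data. Replicates shared at most 9.01% of identical values. The titles call the 2 cultures of a kind biological replicates. They do not say whether these were started apart, so the spread between them may be technical. The limma p-values there use the spread pooled over all 7 groups, not that of the cultures alone. Areas of an animal were treated as samples, with the animal as a block as an alternative, since deviations of samples of 1 animal correlated with a median of 0.15 (range −0.30 to 0.42, 10 pairs). Other alternatives were 4 scalings, a filter of at least 20 in 2 samples, a higher background (negative-control mean + 2 SD taken off, floor 1), a pseudocount of 10, only the groups compared, the animal series in the model, and omission of single samples with lane factors kept. Named miRNAs were the pair, the 3 most alike each, at most 4 of the study's raised list and at most 2 per marker list with values. Sequences came from RefSeq tables on GRCm38.p6, in which both hairpins were matched. Python 3.11.15 drew the plots.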

Additional observations from a re-analysis of the deposited data

How the results depend on the processing

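Against normal lung, scaling turned the direction of both miRNAs and changed the call of miR-149. Without scaling, the log2 fold change of metastasis over normal lung was −1.45 for miR-140 and −1.86 for miR-149, and with the 4 mRNA controls −1.80 and −2.22. For miR-149 it was 1.84 with the 100 most abundant miRNAs, 1.59 with the miRNA total and −1.35 with the higher background, and for miR-140 it was 0.70 with only the groups compared (limma adjusted p = 0.0322). Carcinoma over EMT-like areas for miR-140 was −0.30 without scaling, −0.19 with the 100 most abundant, −0.11 with the total and −0.19 with the higher background. PT over NMG was 2.57 for miR-140 and 0.86 for miR-149 without scaling, and for miR-149 3.14 with the 100 most abundant and 1.22 with the mRNA controls. Metastasis over PT for miR-149 was −3.49 with the higher background. The causes were not tested. The median of all probes moved by −1.43 (no scaling), 0.87, 0.74 and −1.72 (mRNA controls) for metastasis over lung, and by −1.03, 0.45, 0.36 and −0.70 for PT over NMG. Without 1 sample, miR-140 and miR-149 ranged from −6.04 to −0.11 and −1.95 to −0.71 (spheres over monolayer), −0.25 to 0.29 and −0.91 to −0.48 (carcinoma over EMT-like), 0.61 to 0.76 and −0.41 to 0.56 (metastasis over lung), −1.58 to −1.35 and −2.42 to −1.44 (metastasis over PT), and 3.76 to 3.99 and 1.76 to 2.55 (PT over NMG). With the replicate block they were −3.07 and −1.33, 0.10 and −0.68, 0.70 and 0.22, −1.49 and −1.78, and 3.91 and 2.15, and the block changed no call. Likeness to miR-140 without the cultures was −0.32 for miR-106b and −0.27 for miR-19b. Over all 583 probes, calls between carcinoma and EMT-like areas went from 1 to 7 without scaling or with the filter, 4 with the higher background, 2 with the 100 most abundant and 0 with the pseudocount of 10. Between metastasis and lung they went from 287 to 170 with the filter and 151 without normal lung replicate 2, between spheres and monolayer from 27 to 8 without scaling, 9 with the mRNA controls, 41 with the total and 0 with only these groups, between PT and NMG from 167 to 254 without scaling and 339 with the higher background, and between metastasis and PT from 18 to 41 without scaling, 10 with the mRNA controls and 32 with the higher background.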
